A study of Mus musculus with 8 samples.

Results

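Interval probes are array probes whose only name is a stretch of the mouse genome, given as chromosome, start, end and usually a strand, in place of a transcript accession. They were chosen as the probes that are not controls and whose systematic name is such a coordinate on the mm9 build. There were 16194 of them among 55681 different probes, or 29.1%. They were compared between 3 wildtype ovaries and 5 ovarian neoplasias, each hybridised to its own one-colour array. The tissue came from mice at 33 weeks of age, and all 8 samples are labelled cycling. The neoplasias carried the genotype written Pgrcre/+mPgrLsL/+ in the sample labels and Pgrcre/+PgrBLsL/+ in the series design. In it the Pgr locus drives Cre, and Cre activates an allele of progesterone receptor isoform B that a stop cassette otherwise silences. Recombination is therefore set by where Pgr is active, and no group carried Cre or the silent allele alone, so the effects of either allele cannot be told apart from that of both. The labels number the samples within a group and do not say how animals or tissue pieces relate to them, so p-values measure only the spread between these samples.

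Long intergenic noncoding RNAs are transcripts from the spaces between protein-coding genes that carry no long reading frame. Many are spliced and polyadenylated like messenger RNA, and as a class they are less abundant and more restricted to particular tissues than messenger RNA. They were first catalogued in numbers from chromatin maps, in which a promoter mark followed by a mark of elongating polymerase outlines a transcribed stretch without telling its strand, so that probes for both strands can be laid across it. The ovary holds oocytes, granulosa, theca, luteal, surface epithelial, vascular and immune cells, and each contributes its own noncoding transcripts to whole-organ RNA.

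The 16194 probes carried 4610 names of an interval and a strand, from 3543 intervals. Of these intervals 1067 had probes on both strands, 2473 on one strand and 3 gave no strand. Forward-strand probes numbered 8171, reverse-strand probes 8010, and 13 probes had no strand. A name had a median of 3 probes, from 1 to 10. Intervals ran from 62 to 7128487 bp, with a median of 7304 bp and quartiles at 786 and 21807 bp. Many overlapped: merged where they overlapped on either strand, they formed 2226 loci, and 784 loci held more than 1 interval. Probes of one interval or locus share their source and are not replicates. Positions are given as in the probe names on mm9, and the genes or exons that an interval may touch were not analysed here.

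Several features of the arrays bear on these probes. The 75th percentile of the processed signal, the value each array was scaled to, was 462 to 515 on the wildtype arrays and 309 to 429 on the neoplasia arrays, so the neoplasia arrays were dimmer before scaling. Slide row also split the groups unevenly: neoplasia 1 to 4 lay in slide row 1, and neoplasia 5 lay with the 3 wildtype arrays in row 2. Row 1 holds no wildtype array, so within row 2 the comparison is 1 neoplasia against 3 wildtype arrays. A fit with slide row as a block estimates that same difference, neoplasia 5 against the wildtype arrays. Its spread is taken from the other arrays, since neoplasia 5 alone sets the difference and is fitted exactly. It is 1 comparison and not a separate check, its single neoplasia array is assumed to vary like the others, and a call lost under it does not tell slide row from having 1 array in a group. The part of array brightness and of slide row in the results was not tested beyond the values given here. One Pgr probe, A_51_P213476, read 3.10 to 28.2 on the wildtype arrays and 3128 to 10659.9 on the neoplasia arrays, while the other, A_55_P2095663, read 14.9 to 124 and 2.19 to 3.74. Ovarian cell markers moved with the groups: 8 of 8 oocyte, 5 of 6 granulosa, 5 of 6 luteal and theca and 3 of 3 other germ line markers were lower in neoplasia, and 4 of 4 erythrocyte and 4 of 4 macrophage markers were higher. Of the other lists, 2 of 4 T cell and 1 of 3 endothelial markers were higher, 1 of 3 smooth muscle markers was lower, and of 6 epithelial markers 2 were higher and 2 lower. Over all tested probes 15.6% were higher and 13.5% lower, and lists this short say little beside those shares. The mean level of the oocyte markers was 0.93 to 1.39 in wildtype and −5.70 to −5.03 in neoplasia on the log2 scale, with 4 of 8 markers not well above background on any neoplasia array. The mean level of the erythrocyte markers was −0.69 to 0.57 and 4.33 to 6.71. In whole tissue, fewer cells of a type and less RNA per cell cannot be told apart, and the part of these cell types in the interval results was not tested.

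Fewer interval probes than other probes were well above background, the scanner software's flag for a detected spot, and fewer were detected in neoplasia than in wildtype ovary. On the wildtype arrays 42.3%, 42.1% and 45.2% of interval probes were detected, or 43.2% ± 1.77 (SD, n = 3). On the neoplasia arrays the shares were 35.7%, 40.1%, 43.1%, 33.7% and 33.4%, or 37.2% ± 4.25 (SD, n = 5). The group ranges overlapped, because neoplasia 3 lay above wildtype 1 and 2. Among the other probes the shares were 68.1% ± 0.165 in wildtype and 62.6% ± 2.33 in neoplasia, and those ranges did not overlap. The median processed signal of an interval probe was 11.2 ± 0.162 units in wildtype and 7.60 ± 1.17 units in neoplasia, against 92.3 ± 11.7 and 54.4 ± 9.03 units for other probes, so most interval probes sat near the detection limit. Reverse-strand interval probes were detected more often than forward-strand probes on each of the 8 arrays, at 46.2% ± 1.69 against 40.3% ± 1.89 in wildtype and 39.6% ± 4.40 against 34.9% ± 4.13 in neoplasia.

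Interval probes were detected on no array more often than on all. No array detected 6687 interval probes (41.3%, against 22.0% of other probes), and all 8 arrays detected 4123 (25.5%, against 53.7%). The other 5384 (33.2%) were detected on some arrays but not all. Only probes that 3 or more arrays detected were tested, and 7120 of the 16194 interval probes (44.0%) passed. At least 1 probe passed in 2525 of the 3543 intervals. Of the 1067 intervals with probes on both strands, 605 had tested probes on both, 178 on the forward strand alone, 188 on the reverse strand alone and 96 on neither. The filter can be met by the 3 wildtype arrays alone: 274 interval probes were detected on all 3 wildtype arrays and no neoplasia array, and 23 on all 5 neoplasia arrays and no wildtype array. A probe that passed only through the group in which it was high had to differ, so these counts are descriptions. The adjusted p-values of probes given below with a bound are descriptions for the same reason. The 274 came from 185 intervals on 20 chromosomes, and the 23 from 19 intervals on 11 chromosomes. Their bounds were modest, with medians of at least 1.92-fold for 271 of the wildtype-only probes and at least 4.33-fold for the neoplasia-only probes. Such a bound sets the mean of the group that was detected against, per array of the other group, the higher of the probe's own level and the lowest level among detected probes.

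Interval probes changed in both directions. Levels are log2 processed signals minus the array's 75th percentile, differences are neoplasia minus wildtype, and a probe was called at an adjusted p below 0.05 (limma, Benjamini-Hochberg over all 34280 tested probes). Of the 7120 tested interval probes 1766 were called (24.8%, against 29.1% of all tested probes), 791 higher (11.1%, against 15.6%) and 975 lower (13.7%, against 13.5%). The filter fixes part of this balance: 250 of the lower calls and 23 of the higher calls were probes detected in one group alone, and without them 768 were higher and 725 lower, a count added after seeing the data. Calls of at least 2-fold numbered 447 higher and 871 lower. The arrays of the groups did not overlap for 33.0% of tested interval probes, against 38.1% of all tested probes. The median difference was 0.05 for interval probes, against 0.11 over all tested probes. Forward-strand probes gave 416 higher and 449 lower of 3388 tested, with a median of 0.12, and reverse-strand probes gave 375 and 526 of 3727, with a median of −0.02. The 5 tested probes without a strand had 0 calls by limma. By merged locus, 774 of 1652 tested loci held a called probe: 411 only higher, 289 only lower and 74 both. Counted by locus, rises outnumbered falls, since falls came with more called probes at fewer loci.

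The balance of rises and falls depended on how arrays were scaled. Higher calls made up 44.8% of interval calls with the 75th percentile, 60.3% after quantile normalization (1271 higher and 838 lower), 74.6% after normexp background correction (1759 and 598), 6.12% after scaling on spike-in controls (82 and 1258), and 11.6% in the authors' deposited values (89 and 676 of 3130 interval and strand names, not scaled between arrays). The median of all tested probes moved with it, from 0.11 to 0.06 with quantile normalization, to 0.22 with normexp, to −0.49 with spike-in scaling and −0.34 in the deposited values. Interval probes had the smaller share of higher calls than other probes with the 75th percentile (44.8% against 55.6%), with spike-in scaling (6.12% against 16.7%) and in the deposited values (11.6% against 20.8%). That order turned with quantile normalization (60.3% against 49.3%) and with normexp (74.6% against 66.1%). For neoplasia 5 alone against wildtype, the calls were 104 higher and 280 lower with slide row as a block, with a median of −0.092. Within row 2 alone the median was −0.14. There a probe was tested where at least 3 arrays of the row detected it. Neoplasia 5 is the only neoplasia array of that row, so a probe detected in neoplasia alone could not enter. The filter thus fixes part of the balance there. Leaving out 1 array moved the counts widely: without wildtype 1, 2 or 3 they were 154 and 230, 217 and 284, and 261 and 334, and without neoplasia 5 they were 1169 and 1162. Without neoplasia 3 or neoplasia 4, 499 probes were higher in each case, with 868 and 776 lower.

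The direction of the calls varied with signal. Tested interval probes were divided by mean level into 3 equal classes with median signals of 19.5, 49.5 and 245 units. The dimmest had 172 higher and 435 lower calls, the middle 260 and 290, and the brightest 359 and 250, so higher calls made up 28.3%, 47.3% and 58.9%. Part of the excess of falls among dim probes comes from the filter, since 248 of the 435 were detected on all wildtype arrays and no neoplasia array. Without probes detected in one group alone the dimmest class had 158 higher and 187 lower calls and the middle class 251 and 288, or 45.8% and 46.6% higher, and the brightest class held no such probe. Median differences were −0.21, 0.08 and 0.19. Among the 4123 interval probes detected on all 8 arrays, 660 were higher and 401 lower. The direction also varied with interval length, counted with the probes detected in one group alone. From the shortest to the longest quartile of intervals, higher calls made up 39.1%, 35.8%, 43.5% and 54.9%, with medians of 0.02, −0.07, 0.04 and 0.13. These divisions were made after the values were seen.

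The 10 largest rises and falls were taken from called probes with groups that did not overlap, detected on every array of the higher group. Chromosome 18 was left out, and 1 probe was taken per interval and strand. Under these rules the 10 rises came from 6 chromosomes, and 3 of them lay in 1 stretch of chromosome 9. On the reverse strand of chr9:96664617-96683617, probe A_30_P01032514 gave processed signals, in scanner units, of 54.6, 67.9 and 35.5 on the wildtype arrays and 1258, 1086, 1349, 1187 and 298 on the neoplasia arrays. All neoplasia arrays were higher, with neoplasia 5 the lowest of them, and the difference was 4.65 ± 0.52 (SE), adjusted p = 7.16e-04. The other 6 tested probes on that strand also had positive differences, 1.66 to 4.61, and 5 of them were called. A pair of neighbouring intervals, chr9:96632664-96653249 and chr9:96635508-96654148, overlap each other and also rose on the reverse strand. In the first, A_30_P01030501 read 70.8, 93.2 and 54.7 on the wildtype arrays and 1433, 838, 1058, 1233 and 316 on the neoplasia arrays, a difference of 4.08 ± 0.51 (SE), adjusted p = 0.00124. In the second, A_30_P01024491, detected in 2 of the 3 wildtype ovaries, differed by 3.84 ± 0.64 (SE), adjusted p = 0.00452, a call lost with slide row as a block (2.52, adjusted p = 0.142). All 6 other tested probes of these 2 intervals on that strand were called higher.

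On chromosome 8, A_30_P01020954 on the forward strand of chr8:108120629-108123201 read 197, 261 and 131 on the wildtype arrays and 3916, 4469, 4292, 3729 and 831 on the neoplasia arrays. Its difference was 4.45 ± 0.56 (SE), adjusted p = 0.00135, and the other 2 probes of that strand differed by 4.41 to 4.44. Neoplasia 5 again stood between the wildtype arrays and the other neoplasias. A_30_P01027987, forward on chr8:91569369-91594119, read 15.5, 63.0 and 8.27 on the wildtype arrays and 164, 344, 242, 157 and 45.5 on the neoplasia arrays. The scanner detected it in 1 of the 3 wildtype ovaries, and its groups barely separated, at levels of −3.03 in wildtype 2 and −2.98 in neoplasia 5. The difference of 3.45 ± 0.75 (SE), adjusted p = 0.0129, was lost with slide row as a block (1.65, adjusted p = 0.333), without wildtype 1 (3.24, adjusted p = 0.0695) and without wildtype 3 (2.86, adjusted p = 0.0582).

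Probes not well above background on any wildtype array made up 4 of the 10 rises, so each has only a lower bound. They passed the filter through the neoplasia arrays alone and had to differ, so their adjusted p-values are descriptions. A_30_P01023448, forward on chr17:84477999-84489215, read 7.56, 3.97 and 3.11 on the wildtype arrays and 330.0, 31.1, 206, 991 and 192 on the neoplasia arrays, at least 24.7-fold higher, adjusted p = 0.00475. Its neoplasia values were the most scattered of the 10, and the call was lost with slide row as a block (5.87, adjusted p = 0.0953). A_30_P01019540, reverse on chr4:124127144-124334840, read 14.6, 6.39 and 4.97 on the wildtype arrays and 68.4, 438, 355, 36.5 and 70.6 on the neoplasia arrays, at least 14.0-fold higher, adjusted p = 0.00600. Neoplasia 2 and 3 were the high arrays, the other 4 tested probes of the strand were also called higher (3.38 to 4.81), and this call too was lost with the block (3.66, adjusted p = 0.148). A_30_P01019371, forward on chr1:186560855-186563399, was at least 5.47-fold higher, adjusted p = 0.00177, with adjusted p = 0.0654 under the block. A_30_P01028766, forward on chr9:78107225-78118850, read 6.47, 4.93 and 12.4 on the wildtype arrays and 34.8, 45.7, 81.9, 37.9 and 123 on the neoplasia arrays. It was at least 5.87-fold higher, adjusted p = 0.00239, with neoplasia 5 the highest array. The last of the 10, A_30_P01018665, reverse on chr13:34693404-34717987, read 23.0, 21.2 and 16.9 on the wildtype arrays and 121, 74.4, 174, 183 and 186 on the neoplasia arrays, a difference of 3.26 ± 0.38 (SE), adjusted p = 8.80e-04, with no overlap of the groups.

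In 6 of the 10 largest falls no neoplasia array was well above background, so these falls too are lower bounds. These probes passed the filter through the wildtype arrays alone and had to differ, so their adjusted p-values are descriptions. A_30_P01023027, forward on the short interval chr4:63810346-63810958, read 555, 475 and 589.6 on the wildtype arrays and 2.76, 3.12, 4.55, 3.55 and 3.93 on the neoplasia arrays. It was at least 30.6-fold lower in neoplasia, adjusted p = 4.08e-06, and the other 2 probes of the interval were also called lower. A_30_P01029803, reverse on chr13:34240528-34240965, read 621, 630.5 and 450.3 on the wildtype arrays and 4.13, 6.69, 6.96, 5.38 and 8.28 on the neoplasia arrays, at least 31.9-fold lower, adjusted p = 4.08e-06. The wildtype arrays were close together in both, and no neoplasia array was well above background.

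A pair of the falls came from nested intervals of chromosome 3, forward strand. A_30_P01024709 on chr3:137742666-137744470 read 661, 172 and 836 on the wildtype arrays and 5.49, 2.90, 2.23, 5.61 and 4.05 on the neoplasia arrays, at least 25.9-fold lower, adjusted p = 2.99e-04. A_30_P01032042 on chr3:137736327-137752677, which contains the former, read 575, 174 and 767 on the wildtype arrays and 7.88, 6.75, 11.7, 3.46 and 9.24 on the neoplasia arrays, at least 23.3-fold lower, adjusted p = 5.08e-04. Wildtype 2 was the low wildtype array for both, at about the same level. The other tested probes of the larger interval on that strand, 3 in number, were called lower as well (−5.39 to −4.57).

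On chromosome X, A_30_P01021240, reverse on chrX:50400250-50410825, was detected on all 8 arrays and read 2488, 2847 and 3007 on the wildtype arrays and 81.8, 29.2, 29.3, 62.8 and 97.6 on the neoplasia arrays. The difference was −5.23 ± 0.51 (SE), adjusted p = 3.57e-04, so a fall was measured on both sides and not against the floor. On chromosome 10, A_30_P01028194, reverse on chr10:62267317-62269871, read 361, 352 and 343 on the wildtype arrays and 3.97, 13.6, 9.64, 3.74 and 35.0 on the neoplasia arrays, a difference of −4.78 ± 0.65 (SE), adjusted p = 0.00183. Only 2 of the 5 neoplasia arrays detected it, so the size of the difference rests partly on values near background. Neoplasia 5 kept the highest neoplasia value there. On chromosome 16, A_30_P01029411, reverse on chr16:90008636-90015586, was at least 13.1-fold lower, adjusted p = 1.49e-04, and A_30_P01017503, forward on chr16:17833211-17835112, at least 7.38-fold lower, adjusted p = 8.04e-05. Another 2 falls were well above background on 1 of 5 neoplasia arrays each, so their differences rest mostly on values not above background, and both calls were lost with slide row as a block. They were A_30_P01027569, forward on chr4:3169583-3180017 (−5.10 ± 0.97 (SE), adjusted p = 0.00747, and −1.81, adjusted p = 0.0657 with the block), and A_30_P01028196, reverse on chr19:46422690-46423478 (−4.98 ± 0.85 (SE), adjusted p = 0.00483, and −2.94, adjusted p = 0.151). Over the 20 named rises and falls, 13 kept their call with slide row as a block, that is, with neoplasia 5 alone against wildtype. Some of the 13 passed the filter through the higher group alone, so the count is a description.

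Whole intervals also rose or fell together. On chr8:26343277-26352902 all 5 forward and all 5 reverse probes were called higher, with differences of 2.15 to 2.22 and 2.21 to 2.32. The median signal of the 5 forward probes was 129, 128 and 205 on the wildtype arrays and 433, 699, 618, 775 and 223 on the neoplasia arrays. That of the reverse probes was 707, 630.0 and 905 on the wildtype arrays and 2535, 3459.7, 3219, 3473 and 1162 on the neoplasia arrays. On both strands neoplasia 5 was the lowest neoplasia array but lay above all wildtype arrays. With slide row as a block the lead probes, A_30_P01028097 forward and A_30_P01023279 reverse, differed by 1.04, adjusted p = 0.192 and 1.07, adjusted p = 0.165.

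On chr13:34693404-34717987 all 5 reverse probes were called higher (1.43 to 3.26), and their median signals were 41.3, 43.4 and 26.0 on the wildtype arrays and 181, 84.1, 304, 289 and 261 on the neoplasia arrays. Of the 2 tested forward probes there, A_30_P01033410 was called higher at 0.66 ± 0.21 (SE), adjusted p = 0.0480, a call lost under 14 of 19 other settings. It was lost in 7 of the 8 fits with 1 array left out (adjusted p up to 0.184), kept there only without neoplasia 5. The authors' deposited values hold 1 average per interval and strand, and for this strand that average differed by −0.49. The other forward probe differed by −1.39 and was not called. On chr8:91569369-91594119 6 of 7 tested forward probes were called higher (0.94 to 3.45 over all 7), and on chr9:96664617-96683617 6 of 7 reverse and 3 of 6 forward probes were.

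Falls also ran over whole intervals. On chr2:153163620-153170845 all 5 tested forward and all 9 reverse probes were called lower, by differences of −1.44 to −0.93 and −1.58 to −1.19. The lead reverse probe, A_30_P01023507, lost its call with replicate number as a block (adjusted p = 0.0537). It also lost it without wildtype 1, 2 or 3 in turn (adjusted p up to 0.0886). The median reverse signal was 202, 188 and 176 on the wildtype arrays and 40.9, 87.5, 72.2, 39.0 and 33.9 on the neoplasia arrays. On chr4:129497990-129515290 all 10 forward probes were called lower (−1.56 to −1.06), with median signals of 720.1, 641 and 802 on the wildtype arrays and 169, 310.1, 214, 159 and 230.0 on the neoplasia arrays. The lead forward probe, A_30_P01027717, differed by −1.56 ± 0.28 (SE), adjusted p = 0.00627, and lost its call with slide row as a block (−1.05, adjusted p = 0.165). On the reverse strand of that interval 2 of 4 tested probes were called lower and 1 higher. On chr4:135896689-135918414 7 of 7 forward and 5 of 6 tested reverse probes were called lower. Differences over all tested probes, called or not, ran from −2.18 to −1.70 forward and −2.07 to −0.34 reverse. The lead reverse probe, A_30_P01027769, was detected on no neoplasia array. It lost its call with normexp background correction (adjusted p = 0.315) and with slide row as a block. On chrX:50400250-50410825, which holds the largest fall on X, 5 of 6 tested probes on each strand were called lower.

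The merged locus with most called probes was chosen after its values were seen. It spans chr6:31017987-31293337 and holds 8 overlapping intervals with 36 probes, of which 26 were tested and 21 called, all higher. Differences ran from −0.10 to 2.71 with a median of 1.36, and 9 of 11 forward and 12 of 15 reverse tested probes were called. Median signals were 150.1, 177 and 165 on the wildtype arrays and 571, 511, 456, 370.1 and 181 on the neoplasia arrays. In these unscaled signals neoplasia 5 fell near the highest wildtype array, while neoplasia 1 to 4 lay well above. The 75th percentile was 359 for neoplasia 5 and 462 to 515 for the wildtype arrays, so scaling sets neoplasia 5 further above them.

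Probes of one interval moved alike on the same strand and less so across strands. Over 8344 pairs of tested probes on the same strand of an interval, 79.1% of differences had the same sign, with a correlation of 0.77 across pairs. Over 5290 pairs on opposite strands, 59.1% had the same sign, with a correlation of 0.34. Pairs share arrays and, on a strand, possibly overlapping probe sequence, so these are descriptions. Where both probes were called, 1254 of 1299 same-strand pairs and 412 of 498 opposite-strand pairs went in the same direction. Averaged by strand, the 605 intervals tested on both strands had the same sign on both in 360 (59.5%). In 97 of them a probe was called on each strand, and 40 of these were higher on both, 23 lower on both, 24 opposite and 10 mixed within a strand. Another 250 had calls on 1 strand alone.

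Of the intervals called alike on both strands, the 4 with the largest differences are described, ranked by the smaller difference of both strands. On chrX:50400250-50410825 the lead forward probe, A_30_P01032623, read 126, 145 and 106 on the wildtype arrays and 7.56, 3.04, 5.80, 5.28 and 11.5 on the neoplasia arrays, at least 7.09-fold lower, adjusted p = 8.06e-04, beside the reverse fall given above. On chr9:96664617-96683617 the lead forward probe, A_30_P01021092, well above background on 4 of 5 neoplasia arrays, was at least 4.10-fold higher, adjusted p = 0.00214. On chr2:174088550-174109425 A_30_P01030755 (reverse) fell by 4.30 and A_30_P01018189 (forward) fell by 2.69 on the log2 scale, with adjusted p = 0.00377 and 0.0205. Each was well above background on 1 of 5 neoplasia arrays, so the sizes rest mostly on values not above background. On chr16:23992037-24001037 A_30_P01020303 (forward) differed by −2.85 ± 0.93 (SE), adjusted p = 0.0499, with overlapping groups, and A_30_P01021218 (reverse), detected on 1 of 5 neoplasia arrays, by −2.44 ± 0.50 (SE), adjusted p = 0.0104. The call of A_30_P01020303 was lost in 7 of 8 fits with 1 array left out (adjusted p up to 0.155), kept there only without neoplasia 2. It was also lost after quantile normalization (adjusted p = 0.0551), without the filter and with the replicate block. A_30_P01018189 lost its call without wildtype 1, 2 or 3 in turn (adjusted p up to 0.0877), and A_30_P01021218 without wildtype 1 (adjusted p = 0.0577). Both chromosome 2 calls and both chromosome 16 calls were lost with slide row as a block (adjusted p = 0.0933, 0.507, 0.160 and 0.124).

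Of the 24 intervals with calls in opposite directions on the strands, the 4 with the largest differences are described, ranked in the same way. On chr13:81773237-81783062 the reverse probe A_30_P01031135 read 70.3, 153 and 145 on the wildtype arrays and 6.53, 6.75, 6.92, 4.22 and 5.99 on the neoplasia arrays, at least 6.59-fold lower, adjusted p = 1.66e-04. The forward probe A_30_P01027177 of that interval, well above background on 4 of 5 neoplasia arrays, read 4.12, 18.6 and 6.28 on the wildtype arrays and 12.6, 17.5, 16.0, 27.3 and 40.2 on the neoplasia arrays. It was at least 2.28-fold higher, adjusted p = 0.0337, a call lost without neoplasia 4, wildtype 1 or wildtype 3 (adjusted p up to 0.143). The deposited average over the probes of that strand differed by −0.14. On chr9:31834945-32015745, 4 of 4 tested forward probes were called lower (−1.83 to −1.47). The single tested reverse probe there, A_30_P01028871, well above background on 4 of 5 neoplasia arrays, was at least 2.05-fold higher, adjusted p = 0.00183. On chr8:48476637-48492537 the forward probe A_30_P01032305 read 12832, 13848 and 12079 on the wildtype arrays and 43222, 28916, 45029, 33336 and 21039.7 on the neoplasia arrays. It rose by 1.83 ± 0.31 (SE), adjusted p = 0.00505, in the opposite direction to the reverse probe A_30_P01023531, at least 2.0-fold lower, adjusted p = 0.0125. On chr2:127988295-128194920 A_30_P01021819 (forward), well above background on 1 of 5 neoplasia arrays, differed by −1.85 ± 0.54 (SE), adjusted p = 0.0357, and A_30_P01028837 (reverse) by 1.53 ± 0.49 (SE), adjusted p = 0.0459, with overlapping groups. Both were lost in 7 of 8 fits with 1 array left out (adjusted p up to 0.126 and 0.166), kept there only without neoplasia 5 and without neoplasia 1 respectively. The second was also lost with spike-in scaling, and the deposited average over the probes of its strand was not called. With slide row as a block, A_30_P01031135 (adjusted p = 0.00937) and A_30_P01028871 (adjusted p = 0.0127) kept their calls and the other lead probes of these 4 intervals did not.

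The balance of calls varied between chromosomes, which was described and not tested. With the 75th percentile, chromosome 6 was the most one-sided, with 67 probes called higher and 18 lower of 427 tested, and 21 of the 67 lay in the single locus described above. By locus it had 28 rising and 11 falling. That balance turned under other settings, to 1 higher and 23 lower with spike-in scaling, 5 and 26 in the deposited values, and 3 and 13 with slide row as a block. Within row 2 lower calls also outnumbered higher calls, but probes detected in neoplasia alone cannot pass the filter there. Chromosome 9 had the largest share called higher (54 of 279, 19.4%), and chromosome 4 the largest share called lower (108 of 432, 25%), followed by X (63 of 274, 23.0%) and chromosome 2 (106 of 506, 20.9%). On chromosome 4 the excess of falls came from loci with many probes, since 29 loci rose and 25 fell. More loci rose than fell on X (22 and 18) and chromosome 2 (31 and 27) as well. Chromosomes 18 (13.3%) and 19 (13.9%) had the smallest shares called, and chromosomes 4 (37.3%) and X (35.4%) the largest, beside 24.8% of all interval probes. Detection was lower on average in neoplasia on all 20 chromosomes, with the widest gaps on chromosomes 16 (46.8% ± 2.04 in wildtype and 35.8% ± 3.92 in neoplasia) and 19 (50% ± 1.73 and 40.2% ± 4.57). The narrowest gaps were on chromosome 18 (43.5% ± 1.23 and 40.4% ± 4.11) and chromosome 6 (43.1% ± 1.71 and 39.7% ± 3.41).

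Whether a chromosome's median lay above or below 0 depended on the scaling: 12 of 20 medians were above 0 with the 75th percentile, 20 with normexp, 0 with spike-in scaling and 17 with quantile normalization. Their side of the median over all interval probes in the same fit was steadier for some chromosomes. Chromosomes 1, 3, 6, 8, 9, 10 and 18 lay above it in all 20 fits run and chromosomes 2, 11, 16 and X below it in all 20. Margins were as small as 0.0027 on chromosome 10, 0.0053 on chromosome 1 and −0.0040 on chromosome 2. The pooled SD over arrays of the median of tested interval probes was larger, at 0.056. With the 75th percentile the highest medians were 0.26 on chromosome 6 and 0.25 on chromosomes 3, 9 and 18, and the lowest were −0.27 on chromosome 11 and −0.26 on X. The fits share arrays, so this count describes the processing and not independent evidence. By locus, with the 75th percentile, chromosome 2 lay above the median over all tested loci (0.20 against 0.14). Chromosomes 11, 16 and X lay below it by locus too.

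Adjacent loci shared the sign of their difference more often at short range. Each locus was given the median difference of its tested probes. Over 178 pairs of adjacent loci less than 20 kb apart, 124 (69.7%) had median differences of the same sign, with a correlation of 0.45. The share was 58.7% of 322 pairs at 20 to 200 kb, 54.8% of 487 pairs at 200 to 1000 kb and 50.7% of 645 pairs further apart, with correlations of 0.17, 0.08 and −0.00. Where both loci held called probes, 29 of 38 pairs under 20 kb and 56 of 119 pairs over 1000 kb were called in the same direction. The probe names do not say which intervals belong to a single transcript.

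Of the 4 brightest interval probes 2 were called higher, both by less than 1 on the log2 scale. A_30_P01031754 and A_30_P01028215 are both reverse on chr19:5801802-5802597. The first read 296743, 286912 and 283529 on the wildtype arrays and 260773, 411267, 332655, 305709 and 217177 on the neoplasia arrays, with a difference of 0.52 ± 0.21 (SE), adjusted p = 0.0904, and overlapping groups. The second differed by 0.42 ± 0.19 (SE), adjusted p = 0.128. A_30_P01026458, reverse on chr11:22681800-22707775, read 112800.0, 111806 and 106410.0 on the wildtype arrays and 158194, 144219, 153934, 122732 and 108142 on the neoplasia arrays. Its difference was 0.77 ± 0.22 (SE), adjusted p = 0.0307, without overlap after scaling, although the unscaled signals of neoplasia 5 and the wildtype arrays were alike. A_30_P01031448, forward on chr14:78924115-78938125, differed by 0.65 ± 0.19 (SE), adjusted p = 0.0341. Both calls depended on the scaling. After quantile normalization the differences were −0.05 and −0.14. With slide row as a block neither was called (adjusted p = 0.421 and 0.362).

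Noncoding RNA genes that the array names by accession give a comparison with known transcripts. Of a list of 45 such genes 24 were matched on the array, 22 were tested, 2 were higher and 0 lower by limma, counted by the brightest probe of each gene, beside 15.6% higher and 13.5% lower of all tested probes. Their median difference was 0.19, against 0.11 over all tested probes. A further call, higher, fell on 1 of the 4 probes of Norad, whose brightest probe was not called. Snhg12, a small nucleolar RNA host gene, rose from levels of 0.42 to 0.72 on the wildtype arrays to 1.71 to 2.39 on the neoplasia arrays (1.41 ± 0.21 (SE), adjusted p = 0.00279). Mir22hg, the host transcript of a microRNA, rose from −0.71 to −0.26 to 0.11 to 0.69 (0.90 ± 0.22 (SE), adjusted p = 0.0203). Neat1, the scaffold of nuclear paraspeckles, differed by 0.96 ± 0.40 (adjusted p = 0.102), and Xist, which coats the inactive X chromosome, by 0.77 ± 0.40 (adjusted p = 0.172), neither past the threshold. The spread of Meg3, an imprinted transcript, was wide in neoplasia (−1.63 to 6.82, against 3.66 to 4.11 in wildtype), and its difference of −2.21 ± 1.63 was not called (adjusted p = 0.326).

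Members varied more among neoplasias than among wildtype ovaries. The median SD over arrays was 0.50 in neoplasia and 0.23 in wildtype for tested interval probes, against 0.48 and 0.20 for other probes. Each neoplasia array was set against the wildtype mean over the called probes, which were chosen with these arrays. For probes called higher the median difference was 1.24, 0.89, 1.19, 1.20 and 0.81 in neoplasia 1 to 5, and for probes called lower −2.04, −1.52, −1.61, −2.14 and −1.48. Neoplasia 5, the one on the slide row of the wildtype arrays, and neoplasia 2, on the other row, were thus the nearest to wildtype in both directions.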

How the data were processed

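RNA of 3 wildtype ovaries and 5 ovarian neoplasias was labelled with Cy3 and hybridised to one-colour arrays on the mm9 design. The deposited scanner files give spot intensity: per the file headers, Agilent Feature Extraction 11.0.1.1 made the background-subtracted processed signal and the flags. The authors' deposited value table holds log2 processed signals averaged per feature name, as set against the scanner files (all 4610 interval names within 0.001), and the submitters' processing notes name Partek without a version or role. Control and outlier-flagged spots were dropped (each interval probe has 1 spot, and 2 to 17 interval spots per array were flagged, so those probes lack a value there), spots were averaged per probe, and each array was scaled to its 75th percentile. Probes well above background on at least 3 of 8 arrays were tested by moderated linear models (limma 3.58.1 under R 4.3.3, two-sided eBayes tests, Benjamini-Hochberg over 34280 probes at 0.05). Counts were made with Python 3.11.15 and pandas 2.3.3.

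The named probes were the 10 largest rises and falls past the threshold with groups that did not overlap, detected on every array of the higher group, 1 per interval and strand, leaving out chromosome 18. The named intervals were those with most probes called in 1 direction, the 4 called in the same and the 4 called in opposite directions on both strands with the largest differences (by the smaller of both), and those of the 4 brightest probes. Members and lists were chosen with earlier results of these data known. Whole-list counts carry no test. The number of arrays limits the precision. With 200 of 34194 simulated probes changed, 43.6% of changes of 2 on the log2 scale and 3.6% of changes of 1 were recovered. In the data 9960 of 34280 tested probes were called, a far larger share. The cutoff after adjustment depends on that share, so the simulated rates are not the recovery rates of this comparison. Alternatives were normexp (offset 50, on median foreground and background), spike-in (6 of 10 spike-in probes above background) and quantile scaling, the deposited values, other filters, means per interval and strand, eBayes with trend, replicate and slide row blocks, and leaving out each array. No mm9 genome, annotation or probe sequence was used here.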

Additional observations from a re-analysis of the deposited data

Results flagged for a closer look

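A single array stood apart from the rest of its group in 6 of 50 sets of values examined, by the gap between the extreme array and its nearest neighbour as a share of the range. Chance flags about 1 in 20, and 4 of the 6 concern neoplasia 5. The median level of tested interval probes was −3.04 in neoplasia 3, against −3.19 to −3.16 in the other neoplasias. In neoplasia 5, A_30_P01020954 (chr8:108120629-108123201, forward) had a level of 1.21, against 3.38 to 3.66 in the other neoplasias. A_30_P01029411 (chr16:90008636-90015586, reverse) had −5.04 there, against −7.05 to −6.51. A_30_P01027569 (chr4:3169583-3180017, forward) had −2.97, against −7.46 to −6.86. The former was well above background on 0 and the latter on 1 of the 5 neoplasia arrays. A_30_P01033410 (chr13:34693404-34717987, forward) had −3.26, against −3.87 to −3.74. In neoplasia 2, A_30_P01018665 (chr13:34693404-34717987, reverse) had −2.53, against −1.36 to −0.88. For the first 3 of the 4 probes of neoplasia 5 its value lay on the wildtype side of the others, and for A_30_P01033410 it lay on the far side.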

How the results depend on the processing

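The counts of interval probes called higher and lower (791 and 975) and their median difference (0.05) moved with scaling, filter, slide row and single arrays. They were 1759 and 598 (median 0.25) with normexp, 82 and 1258 (−0.55) after spike-in scaling, 1271 and 838 (0.22) after quantile normalization, 89 and 676 (−0.31) in the deposited values, 660 and 401 (0.21) for probes detected on all arrays, 390 and 389 (0.13) as means per interval and strand, and 723 and 974 (0.30) without a filter. Without probes detected in one group alone, left out after seeing the data, they were 768 and 725. By locus, counted after seeing the data, 411 were higher and 289 lower. For neoplasia 5 alone against wildtype, with slide row as a block, they were 104 and 280 (−0.092), and within row 2 alone 393 and 1163 (−0.14). Leaving out 1 array gave 154 to 1169 higher, 230 to 1162 lower and medians of −0.0032 to 0.13. Of 20 chromosome medians, 20 were above 0 with normexp and without a filter, 19 for probes detected on all arrays, 4 with the slide row block, 2 within row 2, 0 with spike-in scaling and 9 to 16 with 1 array left out.

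Same-sign shares of probe pairs stayed above 50% in every fit. A median away from 0, as with spike-in scaling (−0.55) and normexp (0.25), raises such shares for unrelated probes too. Across strands the correlation did not rise in those fits (0.34 and 0.24, against 0.34 with the 75th percentile). On the same strand (79.1%) the share was 70.1% without a filter, 80.3% with normexp, 81.0% for probes detected on all arrays, 77.7% with the replicate block, 78.1% within row 2, 76.4% with the slide row block, 83.1% with spike-in scaling and 77.6% to 78.6% with 1 array left out. Across strands (59.1%) it was 65.3% with normexp, 61.2% within row 2, 69.3% with spike-in scaling and 58.5% to 59.8% with 1 array left out. By the scanner's less strict flag 69.5% of interval probes were above background in wildtype and 65.4% in neoplasia, against 43.2% and 37.2%. Leaving out 1 array gave 42.2% to 43.8% and 35.7% to 38.1%.

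The labels do not say whether same-numbered arrays of the groups are paired, and 3 such pairs cannot settle it. Their deviations from the group means correlated at −0.05 to −0.01 over all tested probes, and at −0.12 to 0.08 for arrays with different numbers. Over tested interval probes these ranges were −0.095 to −0.014 and −0.078 to 0.093. With the replicate number as a replicate block, 364 interval probes were higher and 719 lower, with a median of 0.10. Of the 48 named probes and lead probes of intervals, 26 were no longer called with the slide row block and 8 with the replicate block. For A_30_P01033410 the mean per interval and strand (−0.37) and the deposited average (−0.49) had the opposite sign to the probe. The deposited averages also had the opposite sign for A_30_P01019280 (−0.28) and A_30_P01027177 (−0.14). These averages take in other probes of the strand, so they do not show the named probe itself reversing. The cause of these changes was not tested. Signals near background limit what dim probes can show.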
